A study of Mus musculus with 167 samples.

Results

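The miR-181 family of the mouse was followed through lung, heart, brain, leukocytes (WBC) and erythrocytes (RBC) of animals that had received whole thorax lung irradiation (WTLI) or a sham exposure. Its members were taken by name, as the 4 mature miRNAs mmu-miR-181a-5p, mmu-miR-181b-5p, mmu-miR-181c-5p and mmu-miR-181d-5p out of 1915 mature miRNAs in each of the 5 count tables, a rule that uses no measured value. All 4 had at least 1 read in every library.

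The small RNA libraries came from 35 mice, in 20 groups of tissue, strain and exposure. Lung, heart, brain and RBC each had 8 sham and 7 irradiated C3H libraries and 15 sham and 5 irradiated C57 libraries, whereas WBC had 5 and 6 C3H libraries and 11 and 5 C57 libraries. C3H mice (C3Hf/Sed/Kam) were female and were sampled at month 4, and C57 mice (C57Bl/6) were sampled at month 6, so strain and time after WTLI cannot be told apart. The 15 C57 sham mice comprised 7 females and 8 males, while 1 female and 4 males made up the irradiated C57 group. All mice were gnotobiotic young adults at exposure, and the sham group of each strain served as its control. A strip over the thorax was exposed and the rest of the body, brain included, lay under lead, while blood passed through the field. The irradiated mice were those that had reached the sampling month, which limits them as a model to survivors. Each tissue was a separate count table, so tissue and table cannot be told apart either.

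Mature miRNAs guide Argonaute proteins to messenger RNAs, and the seed, bases 2 to 8 of the miRNA, makes most of the pairing. Members of a family share the seed and can pair with the same sites. The miR-181 family is best known from lymphocytes, where miR-181a sets the signalling threshold of the T cell receptor, and from brain, where its members are abundant. Each member is cut from a hairpin whose 5p arm is the main product and whose 3p arm is the passenger.

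The 4 mature sequences (RefSeq, build GRCm38.p6) are shown to make clear what is shared and what tells the members apart. The seed is in capitals.
mmu-miR-181a-5p: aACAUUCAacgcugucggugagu
mmu-miR-181b-5p: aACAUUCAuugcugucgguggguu
mmu-miR-181c-5p: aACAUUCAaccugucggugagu
mmu-miR-181d-5p: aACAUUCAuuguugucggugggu

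All 4 carried the seed ACAUUCA, and of 1679 mature names in the reference no other carried it. Counted from 1 at the 5′ end, miR-181a and miR-181b differed by A9U, C10U and A21G over 23 shared positions, with miR-181b 1 base longer. The pair that differed least was miR-181b and miR-181d, with the single change C12U over 23 positions and a last base present in miR-181b only. The sequence of miR-181c equalled that of miR-181a with position 11 left out. How the authors' alignment assigned reads that fit more than 1 name was not stated, so the split between miR-181b and miR-181d in particular is uncertain.

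The members come from 3 clusters. Mir181a-1 (chr1:137966455-137966541, plus strand) and Mir181b-1 (chr1:137966639-137966718) lie 97 bases apart in an exon of the noncoding gene A430106G13Rik. Mir181a-2 (chr2:38852735-38852810, plus strand) and Mir181b-2 (chr2:38853830-38853918) lie 1019 bases apart, opposite an intron of Nr6a1, which encodes a nuclear receptor. Mir181d (chr8:84178716-84178787, minus strand) and Mir181c (mature arms at chr8:84178885-84178945) lie in an intron of the germ-cell gene Nanos3. The mature miR-181a and miR-181b of both of their clusters have the same letters, so their counts pool 2 loci each, while miR-181c and miR-181d each have 1 locus.

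Library totals were 1794995 to 7865102 miRNA reads. The organ labels were checked with miRNAs known from each organ. Every heart library (35 of 35) exceeded all libraries of other tissues in the cardiac miR-208a-3p, as did every brain library (35 of 35) in the neuronal miR-124-3p. For the epithelial miR-200c-3p this held in lung with 1 exception (34 of 35). WBC and RBC were harder to tell apart. The myeloid miR-223-3p was above all other tissues in 13 of 27 WBC libraries, and the erythroid miR-451a in 0 of 35 RBC libraries, with up to 60074.7 RPM (reads normalised by the library total) elsewhere against 2462.69 to 41116.5 RPM in RBC. The values of WBC and RBC are therefore those of blood fractions that these markers did not separate. In all these bulk samples fewer cells of a type and less RNA per cell cannot be told apart.

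In sham mice all 4 members had their highest mean over both strains in brain. The leading member by its mean in each tissue was miR-181a, and its mean fell in the order brain, lung, heart, WBC and RBC. The sham level of miR-181a was 10863 ± 2847 RPM (SD, n = 23) in brain, 4169 ± 1232 RPM (n = 23) in lung, 719 ± 249 RPM (n = 23) in heart, 420 ± 429 RPM (n = 16) in WBC and 117 ± 44.9 RPM (n = 23) in RBC. In brain it was the 18th most abundant miRNA by its median rank, and in RBC it was at rank 70. Brain exceeded lung for miR-181a in 23 of 23 animals, lung exceeded heart in 23 of 23, and heart exceeded RBC in 23 of 23. Heart exceeded WBC in 12 of the 16 animals with both, so this pair of neighbours overlapped.

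The other members stood far below miR-181a in the organs. The sham level of miR-181b was 375 ± 173 RPM in brain, 127 ± 51.1 RPM in lung, 30.1 ± 13.1 RPM in heart, 55.0 ± 44.2 RPM in WBC and 11.1 ± 5.22 RPM in RBC. For miR-181c the levels were 686 ± 194 RPM in brain, 187 ± 51.7 RPM in lung, 77.6 ± 25.6 RPM in heart, 104 ± 44.1 RPM in WBC and 51.0 ± 14.04 RPM in RBC. For miR-181d they were 162 ± 75.7 RPM in brain, 38.8 ± 16.3 RPM in lung, 24.6 ± 8.04 RPM in heart, 117 ± 86.1 RPM in WBC and 42.7 ± 10.95 RPM in RBC. The order of tissues thus differed by member. For miR-181d, WBC came next to brain by these pooled means and heart was the lowest tissue, below RBC. Brain exceeded WBC for miR-181d in 12 of 16 animals. In C57 males its WBC mean (192 RPM) lay above the brain mean (165 RPM). In C3H its lung mean (55.1 RPM) lay above the WBC mean (52.7 RPM).

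**Figure D1:**
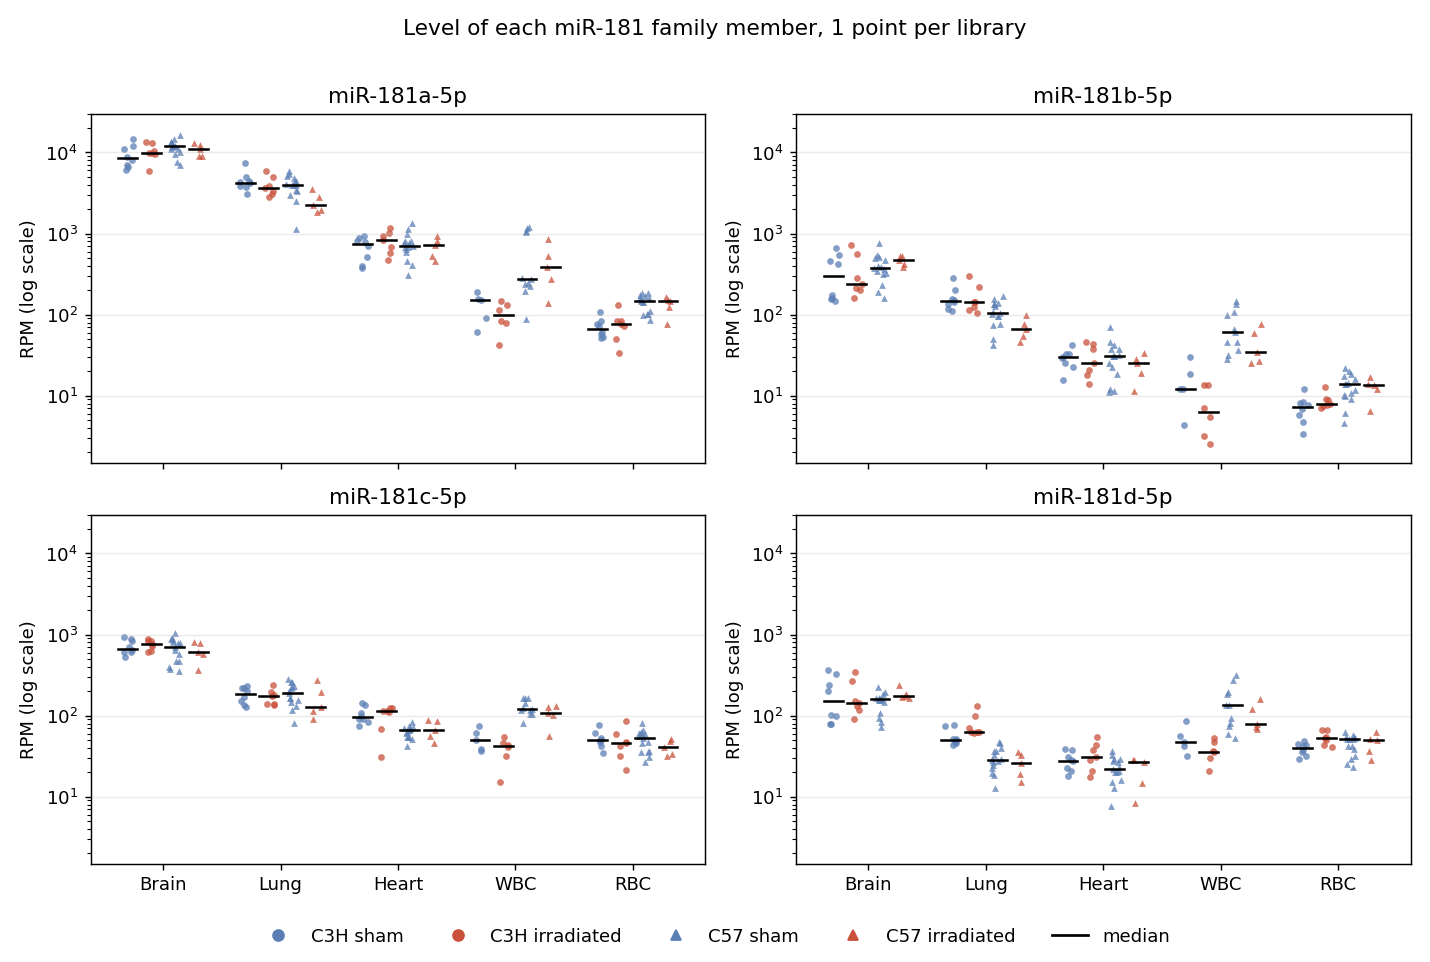
Level of each miR-181 member in RPM (log scale) by tissue, with 1 point per library, circles for C3H, triangles for C57, blue for sham and red for irradiated; black lines are group medians. Sham miR-181a averages 10863 RPM in brain and 117 RPM in RBC, while miR-181d spans only 24.6 to 162 RPM over the tissue means.

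Tissues were compared in sham mice with limma (voom, library size alone, mean over both strains, adjusted over 524 miRNAs). Such tissue differences are common. Of all miRNAs tested, 87.2% passed an adjusted p of 0.05 between brain and lung, 88.4% between brain and heart, 90.3% between brain and WBC, 93.5% between brain and RBC, 67% between lung and heart, 88.7% between lung and WBC, 85.7% between lung and RBC, 89.9% between heart and WBC, 88.5% between heart and RBC, and 41.2% between WBC and RBC. Of the 40 member tests 37 passed, 34 of them higher in the tissue named first and 3 lower. Against that background the count itself is not particular to the family, and the sizes are given below.

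Brain exceeded lung by 1.31 ± 0.15 on the log2 scale (SE) for miR-181a, 1.37 ± 0.19 for miR-181b, 1.89 ± 0.12 for miR-181c and 1.93 ± 0.17 for miR-181d, where the median of all miRNAs was 1.16. Brain exceeded heart by 3.92 ± 0.17 for miR-181a and by 2.63 ± 0.18 for miR-181d, with 1.95 as the median of all miRNAs. Lung exceeded heart by 2.61 ± 0.17 for miR-181a, 2.18 ± 0.21 for miR-181b, 1.17 ± 0.13 for miR-181c and 0.70 ± 0.19 for miR-181d, with a median of 0.26. From miR-181a to miR-181d the lung-to-heart difference thus became smaller at each step. The miR-181d call was lost with edgeR (0.25, adjusted p = 0.197), TMM (0.31, 0.110), quantile normalisation (0.15, 0.462) and C57 alone (0.42, 0.100), and with DESeq2 the value was -0.12.

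Against the blood fractions the members parted. Lung exceeded WBC by 4.23 ± 0.21 for miR-181a, whereas miR-181d was lower in lung than in WBC (log2 difference -0.999 ± 0.198, adjusted p = 2.86e-06). In C57 alone that difference was -2.11, and in C3H alone it was 0.11 (adjusted p = 0.743). In heart, miR-181d was lower than in WBC (log2 difference -1.70 ± 0.20, adjusted p = 4.30e-13) and lower than in RBC (-0.75 ± 0.19, adjusted p = 0.00014), the latter not in C3H alone (-0.51, adjusted p = 0.112). The lung and RBC levels of miR-181d did not pass, with a log2 difference of -0.053 (95% interval -0.42 to 0.31, adjusted p = 0.807). This pair depended on the scaling and the strain, since miR-181d was lower in lung than in RBC with TMM (-0.87, adjusted p = 3.85e-06), edgeR (-0.90, 8.13e-07), DESeq2 (-1.14, 8.84e-12), quantile normalisation (-2.41, 5.18e-26) and C57 alone (-0.58, 0.0122), and stood at 0.48 (0.125) in C3H alone. Heart and WBC also did not pass for miR-181b, at -0.054 (interval -0.55 to 0.44), or for miR-181c, at 0.0037 (interval -0.30 to 0.30). Both averages lay between opposite values in the 2 strains. In C3H alone heart exceeded WBC by 1.09 for miR-181b and 1.002 for miR-181c, and in C57 alone the log2 differences were -1.20 and -0.995.

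The tissue differences depended on the scaling. With TMM scaling the brain mean of miR-181a became 5161 RPM and the RBC mean 180.6 RPM, and the median miRNA differed between brain and lung by 0.42 instead of 1.16 on the log2 scale. All 10 tissue differences of miR-181a kept their direction under edgeR, DESeq2, TMM, quantile normalisation, either strain alone and the animal as a block. For miR-181b 3 of 10 turned in at least 1 of these settings, for miR-181c 6 of 10 and for miR-181d 6 of 10. That brain was above WBC for miR-181d (0.93 on the log2 scale) was such a case, at -0.41 with TMM and -2.56 with quantile normalisation.

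Ratios within a library do not depend on scaling, and they showed that the make-up of the family differed between organs and blood. In sham libraries miR-181a made up 89.8% ± 1.78 (SD, n = 23) of family reads in brain, 91.9% ± 1.56 in lung and 83.9% ± 3.90 in heart, but 53.2% ± 11.9 (n = 16) in WBC and 51.5% ± 8.12 in RBC. The share of miR-181d was 1.32% ± 0.48 in brain, 0.862% ± 0.263 in lung, 2.96% ± 0.82 in heart, 18.5% ± 4.14 in WBC and 19.8% ± 3.77 in RBC. The share of miR-181c was 5.85% in brain, 4.41% in lung, 9.71% in heart, 20.6% in WBC and 23.9% in RBC. Capture and ligation differ between sequences, so such shares need not be molar shares.

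**Figure D2:**
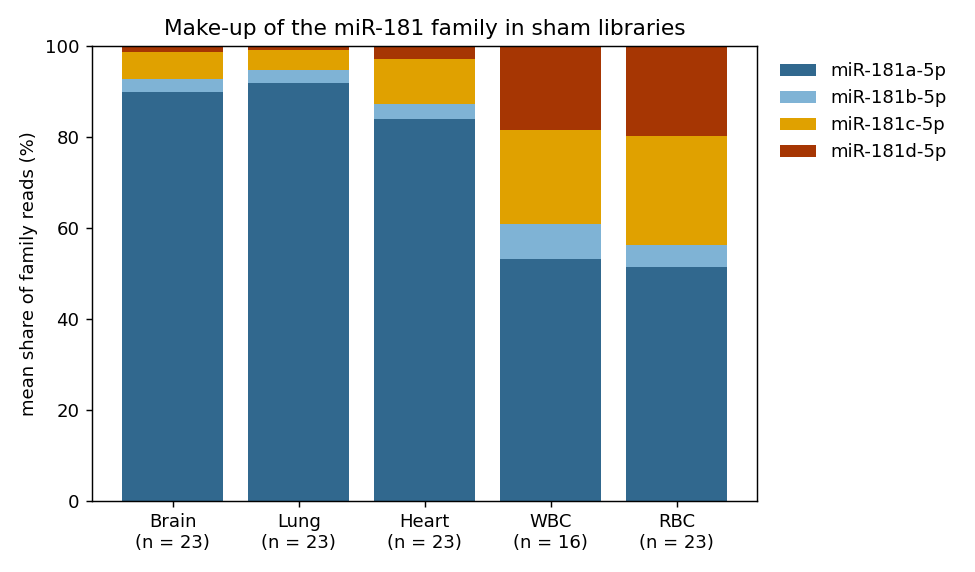
Mean share of miR-181 family reads taken by each member in sham libraries of each tissue, as stacked bars in percent from 0 to 100, with n below each bar. The miR-181a part is 83.9% to 91.9% in the 3 organs and 51.5% to 53.2% in the blood fractions.

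The log2 ratio of the chromosome 8 members (miR-181c plus miR-181d) to the members of the other clusters (miR-181a plus miR-181b) averaged -4.23 in lung, -3.73 in brain, -2.84 in heart, -0.68 in WBC and -0.37 in RBC. The RBC mean pools 2 strains that did not overlap, at 0.25 in C3H (-0.0069 to 0.62, n = 8) and -0.71 in C57 (-1.15 to -0.30, n = 15), while in the other 4 tissues the ranges of the strains overlapped. The ratio was lower in lung than in heart in 23 of 23 animals (difference -1.38, paired permutation test, two-sided, adjusted p = 4.36e-05, from the smallest p the resamples can give). Lung was lower than RBC in 23 of 23 animals by -3.85 and lower than WBC in 16 of 16 by -3.53, at the same adjusted p. The log2 ratio of miR-181a to miR-181b averaged 5.08 in lung, 4.97 in brain, 4.62 in heart, 3.42 in RBC and 2.80 in WBC. Over 2 ratios and 10 tissue pairs, 20 tests were made and adjusted together. The 2 that did not pass were the miR-181a to miR-181b ratio between brain and lung (-0.11, higher in brain in 10 of 23 animals, adjusted p = 0.334) and the chromosome 8 ratio between WBC and RBC (-0.27, higher in WBC in 5 of 16, adjusted p = 0.230).

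**Figure D3:**
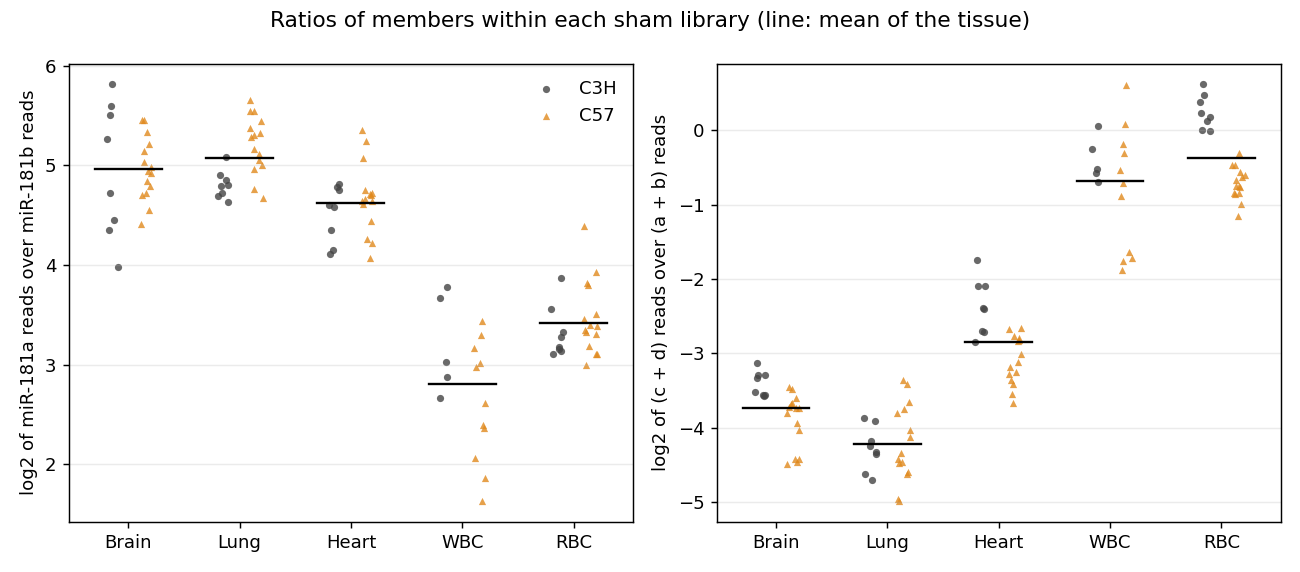
Log2 ratios of members within each sham library by tissue, circles for C3H and triangles for C57, with the tissue mean as a line; left, miR-181a reads over miR-181b reads, and right, miR-181c plus miR-181d reads over miR-181a plus miR-181b reads. The right-hand ratio averages -4.23 in lung and -0.37 in RBC, where the circles and triangles do not overlap.

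Among the passenger arms of miR-181a, that of the chromosome 1 locus had reads and that of chromosome 2 had none. The 3p arms of Mir181a-1 and Mir181a-2 differ in sequence, unlike their 5p arms, and are shown because they tell the loci apart.
mmu-miR-181a-1-3p: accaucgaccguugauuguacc
mmu-miR-181a-2-3p: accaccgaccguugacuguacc

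They differ by U5C and U16C over 22 positions. Reads of mmu-miR-181a-1-3p were found in 158 libraries, with sham means of 414 RPM in brain, 92.0 RPM in lung, 41.9 RPM in heart, 5.33 RPM in WBC and 0.660 RPM in RBC. For mmu-miR-181a-2-3p 0 reads were listed in every library. That 0 concerns this name in the tables, and does not show how much of mature miR-181a came from either locus. The 3p arm of Mir181c had reads in 156 libraries, with sham means of 177 RPM in brain, 25.1 RPM in heart, 16.2 RPM in lung, 5.71 RPM in WBC and 0.5003 RPM in RBC. It was thus lower in lung than in heart (log2 difference -0.61 ± 0.20, adjusted p = 0.00414), whereas its 5p partner miR-181c was higher (1.17 ± 0.13). The arms mmu-miR-181b-1-3p, mmu-miR-181b-2-3p and mmu-miR-181d-3p had at most 34, 8 and 6 reads in any library.

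Irradiated and sham tissues were compared at month 4 or 6. No member passed in any of the 10 contrasts of irradiated against sham libraries (limma, voom with quantile normalisation, adjusted over all miRNAs of the tissue). Of the 40 member tests 0 had an adjusted p under 0.05 and 4 an unadjusted p under 0.05, namely miR-181a and miR-181b in C57 lung, miR-181b in C3H WBC and miR-181d in C3H RBC. Those 4 are 10% of the member tests, against 17.3% of all miRNA tests over the same contrasts at an unadjusted p under 0.05. edgeR and DESeq2 each called 3 members, miR-181a and miR-181b in C57 lung and miR-181d in C3H RBC. Of all miRNAs, edgeR called 20.6% in C57 lung and 5.24% in C3H RBC, and DESeq2 24.1% and 9.61%. The background of calls differed widely by tissue.

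In C57 lung 16.6% of 350 miRNAs passed, and miR-181a and miR-181b came nearest to the threshold. The 5 irradiated C57 lungs held 2247, 3502, 1828, 2831 and 1959 RPM of miR-181a, against a lowest of 1146, a median of 4011 and a highest of 5914 RPM in the 15 sham lungs. All 5 lay below the sham median and 0 below all sham lungs. The log2 difference of miR-181a was -0.64 ± 0.24 (adjusted p = 0.0638).

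Of miR-181b the irradiated C57 lungs held 45.6, 99.3, 67.2, 76.3 and 55.2 RPM, against 42.0 to 171 RPM (median 106) in sham lungs. Again 5 of 5 lay below the sham median, with a log2 difference of -0.64 ± 0.26 (adjusted p = 0.0838). For miR-181c the difference was -0.32 ± 0.24 (adjusted p = 0.347) and for miR-181d -0.42 ± 0.23 (adjusted p = 0.189), with 3 of 5 libraries below the sham median for each.

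The C57 lung values lay close to the threshold, and the call depended on the processing. For miR-181a it passed with TMM (-0.78, adjusted p = 0.0185), edgeR (-0.81, 0.0163), DESeq2 (-0.81, 0.00563), library size alone (-0.65, 0.0469) and the animal as a replicate block over all tissues (-0.89, 0.0373). For miR-181b it passed with TMM (-0.74, adjusted p = 0.0372), edgeR (-0.77, 0.0377) and DESeq2 (-0.77, 0.0168). It also passed for both without C57 sham lung replicate 4, the lowest sham library in both members (-0.73, adjusted p = 0.0127, and -0.71, 0.0379). Among C57 males alone the differences were -0.44 (adjusted p = 0.457) and -0.54 (0.375).

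The labels carry a letter, A or B, of unstated meaning. For miR-181a in C57 lung the difference was -0.24 (adjusted p = 0.783) within letter A and -1.01 (adjusted p = 0.00406) within letter B. As a measure of leukocyte RNA in the same lungs, the summed level of the 2 miR-142a arms, the myeloid miR-223-3p, the lymphocyte miR-150-5p and miR-155-5p was 5564 to 6829 RPM in the 5 irradiated lungs and 2393 to 9748 RPM (median 3741) in the sham lungs. None of those 5 miRNAs passed on its own. Leukocyte sums were 2393 to 3833 RPM in sham females and 3572 to 9748 RPM in sham males, and 4 of the 5 irradiated mice were male. In letter B the irradiated lungs (5564 to 6732 RPM) all lay above the sham ones (2484 to 4495 RPM). In letter A they held 6309 to 6829 RPM against 2393 to 9748 RPM. The 2 sham lungs with the highest leukocyte sums, replicates 4 and 1 of letter A at 9748 and 8303 RPM, held 1146 and 4001 RPM of miR-181a. The part of leukocytes in the miR-181 difference was not tested.

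In C3H lung 33.4% of 350 miRNAs passed, and no member did. The 7 irradiated lungs held 2862 to 5927 RPM of miR-181a (median 3639) against 3087 to 7366 RPM (median 4246) in 8 sham lungs, and 5 of 7 lay below the sham median. The log2 differences were -0.30 ± 0.24 for miR-181a (adjusted p = 0.364), -0.29 ± 0.25 for miR-181b (0.391), -0.32 ± 0.24 for miR-181c (0.332) and 0.053 ± 0.224 for miR-181d (0.892). Within letter A miR-181a differed by 0.25 (adjusted p = 0.644) and within letter B by -0.67 (adjusted p = 0.0403), so its direction was not the same in both. Of all miRNAs, 24.1% passed within letter B. The leukocyte sums split alike, at 5081 to 7019 RPM in the 4 irradiated lungs of letter B, all above the 4 sham ones (3602 to 4673 RPM), and at 2552 to 4029 RPM against 3397 to 4826 RPM in letter A. Their part in the difference was not tested. As RPM, miR-181d lay above the sham median in 7 of 7 irradiated lungs, at 61.6 to 131 RPM against 43.0 to 76.3 RPM, and with library size alone the difference was 0.48 (adjusted p = 0.0999).

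In heart, which shared the field, 16.7% of 312 miRNAs passed in C3H and 3.53% in C57, and again no member did. The 7 irradiated C3H hearts held 473 to 1176 RPM of miR-181a (median 836) against 379 to 939 RPM (median 749) in sham hearts. The log2 differences in C3H heart were 0.44 ± 0.30 for miR-181a (adjusted p = 0.299), 0.16 ± 0.37 for miR-181b (0.788), -0.13 ± 0.20 for miR-181c (0.641) and 0.43 ± 0.32 for miR-181d (0.333). The irradiated C3H hearts of letter A held 473 to 681 RPM of miR-181a and those of letter B 836 to 1176 RPM, without overlap.

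In C57 heart the differences were -0.25 ± 0.30 for miR-181a (adjusted p = 0.762), -0.39 ± 0.38 for miR-181b (0.700), 0.034 ± 0.201 for miR-181c (0.942) and -0.31 ± 0.34 for miR-181d (0.745). Among C57 males alone the value of miR-181a was 0.10 and that of miR-181b 0.12, which turned their direction. The 95% intervals of the 8 heart differences reached from -1.17 to 1.08.

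Lung and heart were then compared directly, and no member passed at this sample size. The change in lung minus the change in heart was -0.78 ± 0.40 for miR-181a in C3H (95% interval -1.56 to 0.014, adjusted p = 0.250) and -0.57 ± 0.40 in C57 (0.520), in a fit where 6.68% of miRNAs passed in C3H and 5.61% in C57. Over the 4 members and both strains these differences ran from -0.78 to -0.13, all 8 below 0. In at least 1 other setting 3 of the 8 changed sign.

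In the tissues outside or passing through the field no miRNA passed in limma, a background of 0% in brain, WBC and RBC of both strains (at an unadjusted p under 0.05, 9 and 53 miRNAs in C3H and C57 brain, 20 and 12 in WBC, 43 and 14 in RBC, while over the other tools and settings at most 22 passed, in C3H RBC with DESeq2). Member differences ran from -0.75 to 0.80. In C3H WBC the 6 irradiated libraries held 5.51, 3.23, 13.4, 13.6, 7.12 and 2.53 RPM of miR-181b, against 4.39 to 29.6 RPM in 5 sham libraries (log2 difference -0.75 ± 0.34, adjusted p = 0.641). The irradiated libraries held 14 to 72 reads of it each, so counting error is not small. In C57 WBC miR-181b differed by -0.51 ± 0.29 (adjusted p = 0.862).

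In C3H RBC miR-181d had the largest member difference upward. The irradiated libraries held 40.6, 49.9, 43.5, 66.4, 53.1, 67.0 and 54.2 RPM, and 5 of 7 lay above all 8 sham libraries (29.6 to 48.2 RPM). The log2 difference was 0.80 ± 0.30 (adjusted p = 0.213), and it passed with edgeR (0.96, adjusted p = 0.0469) and DESeq2 (0.89, adjusted p = 0.0240). Erythrocyte miRNAs summed to 28566 to 85713 RPM in these irradiated libraries and 46232 to 74660 RPM in sham. In 3 of the irradiated libraries, all of letter B, both the erythrocyte sum (28566 to 31508 RPM) and the leukocyte sum (8203 to 15922 RPM, against 19776 to 36641 RPM in sham) lay below the sham range. All 3 were above every sham library in miR-181d, as were 2 of the other 4. The part of blood cell make-up in the difference was not tested. In C57 RBC miR-181d differed by 0.15 ± 0.29 (adjusted p = 0.992).

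**Figure D4:**
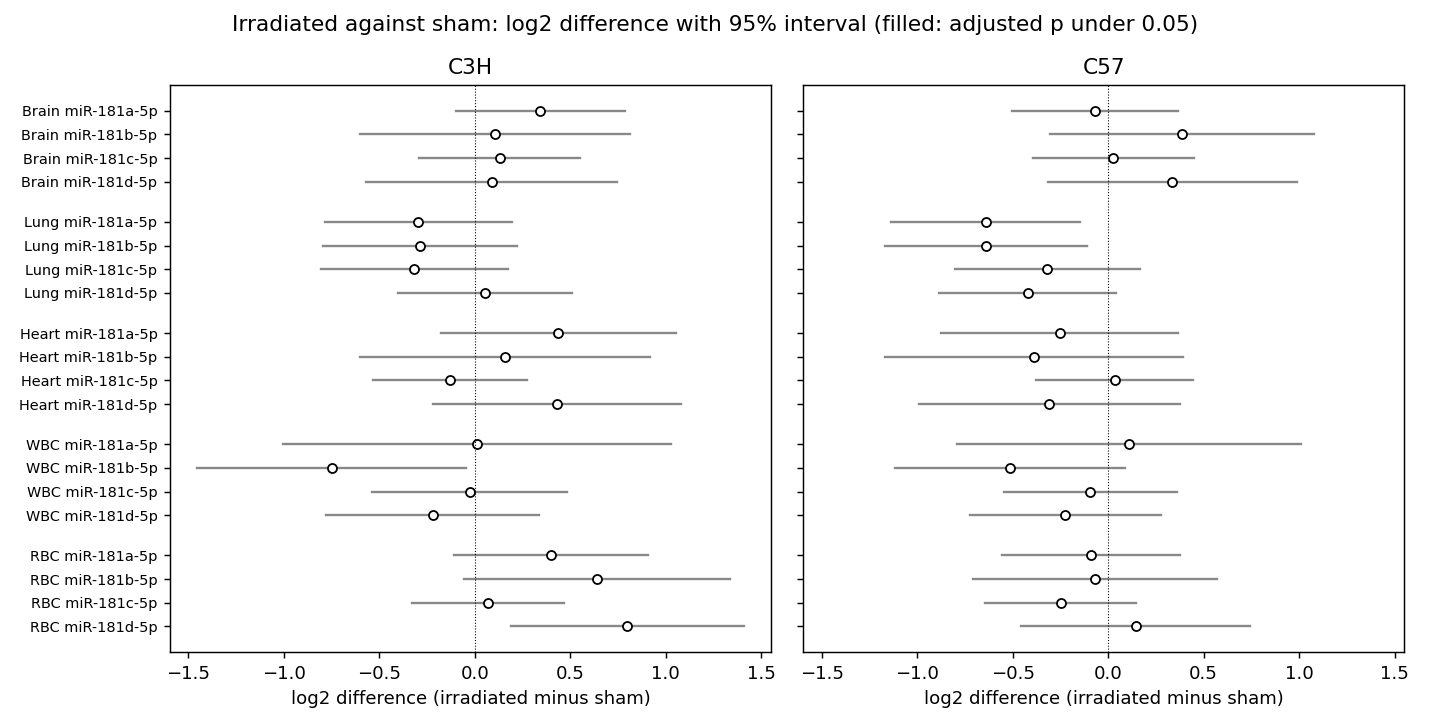
Log2 difference of irradiated minus sham libraries for each member and tissue in C3H (left) and C57 (right), as points with 95% intervals from limma; open points did not pass an adjusted p of 0.05. All 40 points are open, and miR-181a and miR-181b in C57 lung both sit at -0.64.

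No member differed between the strains in its response at this sample size. The interaction of strain and irradiation passed for 0.286% of miRNAs in lung, and for 0% of them in the 4 other tissues (at an unadjusted p under 0.05, 51 miRNAs of heart, 21 of brain, 5 of WBC and 12 of RBC, and over the other tools and settings at most 16, in heart with the animal as a block), and for no member, with member values from -0.28 to 0.74 and a smallest adjusted p of 0.367. Neither ratio within a library passed. Over the 10 contrasts, 20 exact permutation tests (two-sided) gave differences from -0.44 to 0.66, and 0 passed after adjustment. The smallest p was that of the miR-181a to miR-181b ratio in C57 brain, with a log2 difference of -0.44 (4.53 ± 0.16, SD, n = 5, against 4.97 ± 0.31, n = 15, exact permutation p = 0.00884, adjusted p = 0.177).

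Of the 6 passenger arms 3 had enough reads to be tested in lung and brain, 2 in heart and WBC and 0 in RBC, and 0 of those tested passed after WTLI in limma. Other miRNAs known from blood cells were followed in the same organs. Of the 7 listed (both arms of miR-142a with miR-146a-5p, miR-150-5p, miR-155-5p, miR-223-3p and miR-342-3p), 2 passed higher and 1 lower in C3H heart, 1 lower in C57 heart, 1 higher in C3H lung and 0 in C57 lung, which is 42.9% and 14.3% of the list in heart against 16.7% and 3.53% of all miRNAs, and 14.3% and 0% in lung against 33.4% and 16.6%. The lymphocyte miRNA mmu-miR-150-5p was lower in irradiated heart of both strains, with log2 differences of -1.63 ± 0.16 in C3H and -0.85 ± 0.16 in C57. In C3H heart mmu-miR-146a-5p, known from inflammation, was higher by 0.96 ± 0.18. In no contrast of brain, WBC or RBC did any listed miRNA pass. Of the erythrocyte miRNAs 2 of 4 fell in C3H heart, where 16.7% of all miRNAs passed, and cardiac muscle miRNAs fell in 4 of 4 in C3H lung (33.4% of all miRNAs), 1 of 4 in C57 lung (16.6%) and 1 of 4 in C3H heart (16.7%). Endothelial miRNAs fell in 1 of 2 and epithelial miRNAs in 1 of 5 in C3H lung, and of the 4 neuronal miRNAs tested in lung 1 rose in C57. The part of any of these in the values of miR-181 was not tested.

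Sham groups were compared next. Sham C3H females were compared with sham C57 females (limma, quantile normalisation, 3 groups by strain and sex). The background of calls was 12.8% in brain, 15.4% in lung, 21.2% in WBC, 27% in RBC and 42.7% in heart. Of the 20 member tests 5 passed, or 25% against 22.6% of all miRNA tests over the 5 tissues, so the count is near the background.

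In lung miR-181d was 2.08-fold higher in C3H females, at 43.0 to 76.3 RPM (median 50.3, n = 8) against 19.9 to 29.0 RPM (median 27.1, n = 7) in C57 females. All 8 C3H lungs lay above all 7 C57 lungs (log2 difference 1.06 ± 0.21, adjusted p = 0.00066), and it kept a value of 1.06 to 1.13 and its call under the 7 other settings. The near-identical miR-181b differed in lung by 0.50 ± 0.22 (adjusted p = 0.148). Leukocyte sums were 3397 to 4826 RPM in these C3H lungs and 2393 to 3833 RPM in those of C57 females. Epithelial miRNAs summed to a median of 16197 RPM in sham C3H lungs and 28590 RPM in all sham C57 lungs. The part of cell make-up in the lung differences was not tested. In brain miR-181c was 0.72 ± 0.15 higher in C3H females (adjusted p = 0.00239), at 531 to 922 RPM against 355 to 647 RPM. Its passenger arm moved alike, with 0.73 ± 0.14 (adjusted p = 0.00103).

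In RBC miR-181a was lower in C3H females (log2 difference -0.89 ± 0.22, adjusted p = 0.00477), with 7 of 8 libraries below all 7 of C57, at 51.8 to 107 RPM against 86.8 to 152 RPM. In heart miR-181a (-0.74 ± 0.28, adjusted p = 0.0358) and miR-181b (-0.81 ± 0.30, adjusted p = 0.0363) were also lower. Both calls were lost without C3H sham heart replicate 3, chosen after seeing the data for its leukocyte sum of 10253 RPM, against 1065 to 3355 RPM in the other 7 (-0.61, adjusted p = 0.0851, and -0.73, adjusted p = 0.0759, with 31.7% of miRNAs passing). The C3H hearts also split by letter, with 379, 398, 511 and 876 RPM of miR-181a in letter A and 707 to 939 RPM in letter B, against 689 to 1335 RPM in C57 females. All 4 of letter A had leukocyte sums (1655 to 10253 RPM) above all 7 C57 females (986 to 1592 RPM), and those of letter B did not (1065 to 1582 RPM). The part of blood cells in the difference was not tested. In addition, the miR-181a value was -0.50 with library size alone (adjusted p = 0.0660) and neither passed with the looser filter on low counts. As RPM, miR-181c was higher in all 8 C3H hearts than in all 7 C57 hearts (75.3 to 145 against 54.1 to 73.8 RPM), while its fitted difference was 0.30 ± 0.14 (adjusted p = 0.0788) with quantile normalisation and 0.63 with library size alone. In WBC no member passed, although as RPM all 5 C3H libraries lay below all 4 of C57 females for miR-181c. Strain and month were confounded in all of these.

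Sex was compared among sham C57 mice, with a background of 11.6% in lung, 12.5% in WBC, 19.9% in brain, 26.5% in RBC and 47.1% in heart. Of the 20 member tests 9 passed, or 45% against 22.9% of all miRNA tests. In brain miR-181c was 1.84-fold higher in males, and all 8 males (703 to 1042 RPM) lay above all 7 females (355 to 647 RPM), with a log2 difference of 0.88 ± 0.15 (adjusted p = 0.000375). Its passenger arm was also higher in male brain, by 0.54 ± 0.14 (adjusted p = 0.00782). The 3 other members did not pass in brain.

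In heart all 4 members were lower in males, with log2 differences of -0.85 ± 0.28 for miR-181a, -1.17 ± 0.31 for miR-181b, -0.57 ± 0.14 for miR-181c and -0.70 ± 0.28 for miR-181d. Males held 307 to 799 RPM of miR-181a (median 616) and females 689 to 1335 RPM (median 818), with 6 of 8 males below all females. In letter B the males held 307 to 590 RPM and the females 818 to 1335 RPM. In letter A the values were 642 to 799 and 689 to 989 RPM, and the ranges of the sexes overlapped for all 4 members. There miR-181d was 20.6 to 32.9 RPM in males and 15.3 to 27.4 RPM in females. Leukocyte sums were higher in all 8 male hearts (1672 to 2603 RPM) than in all 7 female ones (986 to 1592 RPM), and erythrocyte sums were 481 to 1353 RPM against 340 to 704 RPM. Their part in the difference was not tested. With edgeR and with library size alone 2 of the 4 passed, and the RPM of miR-181c was 61.5 ± 12.9 in males and 66.0 ± 6.91 in females. The passenger arms went the other way, with mmu-miR-181a-1-3p higher in male heart by 0.44 ± 0.13 (adjusted p = 0.0108) and mmu-miR-181c-3p by 0.40 ± 0.11 (adjusted p = 0.00811).

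In RBC 3 members were higher in males, by 0.96 ± 0.24 for miR-181b (adjusted p = 0.00459), 0.70 ± 0.14 for miR-181c (0.000604) and 0.75 ± 0.21 for miR-181d (0.00983). In WBC miR-181d was higher in males by 0.82 ± 0.25 (adjusted p = 0.0446), with 7 of 7 males (93.4 to 321 RPM) above all 4 females (53.3 to 80.6 RPM). The leukocyte sums of these males (23819 to 33448 RPM) also lay above those of all 4 females (16287 to 19887 RPM), and their part was not tested. That call was lost without C3H sham WBC replicate 4 (adjusted p = 0.0512) and without any 1 of the 4 C57 females (adjusted p = 0.0902 to 0.131). It was also lost with the letter as a covariate and with the looser filter. With 1 library left out the difference stayed at 0.77 to 0.85. In lung no member passed.

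**Figure D5:**
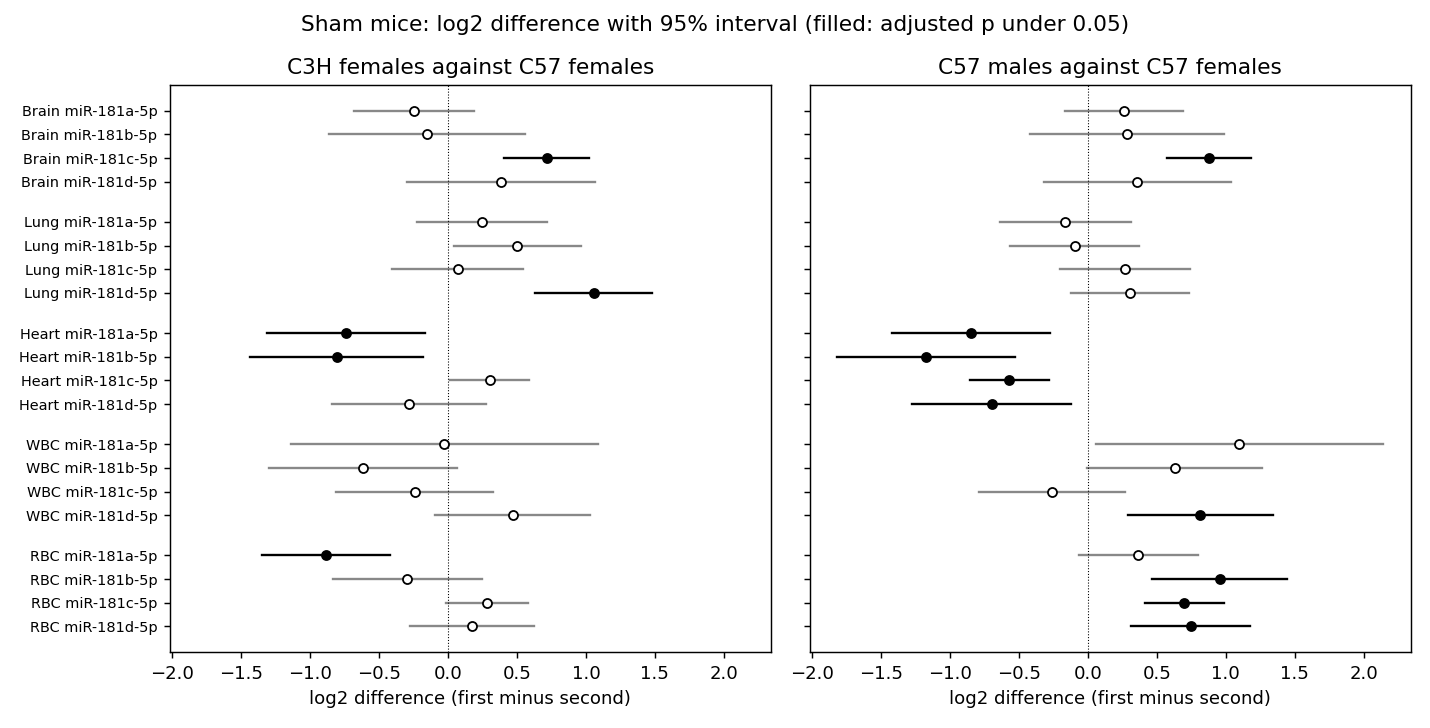
Log2 differences between sham groups for each member and tissue, C3H females minus C57 females (left) and C57 males minus C57 females (right), with 95% intervals from limma; filled points passed an adjusted p of 0.05. The left panel has 5 filled points and the right panel 9, of 20 each.

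The WBC libraries of sham C57 males fell apart in miR-181a. Of the 7, 4 held 1048, 1078, 1209 and 1181 RPM of miR-181a, and the other 3 held 244, 276 and 224 RPM, in the range of the 4 females (87.9 to 287 RPM). The same 4 libraries had erythrocyte miRNA sums of 43013, 23204, 25361 and 26893 RPM, against 69123, 81761 and 106907 RPM in the other 3. The 4 females had erythrocyte sums of 44256 to 63217 RPM, above those of the 4 males high in miR-181a and below those of the other 3. At the neighbouring sums of 43013 and 44256 RPM, a male held 1048 RPM of miR-181a and a female 196 RPM. The 4 males high in miR-181a included all 3 males of letter A and 1 of the 4 of letter B. The part of erythrocyte RNA in this spread was not tested.

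Across the 10 sham groups of tissue and strain, the miRNA whose level (mean log2 of RPM + 1) was most like that of miR-181a among 173 candidates was mmu-miR-872-3p (Pearson r = 0.99), followed by mmu-miR-3535 and mmu-miR-26a-5p (0.98 each). For miR-181b they were mmu-miR-872-5p (0.97), miR-181a itself (0.97) and mmu-miR-532-5p (0.96). For miR-181c they were mmu-miR-324-5p (0.99), mmu-miR-532-5p (0.98) and mmu-miR-1843a-5p (0.98). For miR-181d the likeness was looser, with mmu-miR-7a-1-3p (0.89), mmu-miR-340-5p (0.89) and mmu-miR-491-5p (0.88). Within the family r was 0.97 between miR-181a and miR-181b, 0.92 between miR-181a and miR-181c, and 0.43 between miR-181a and miR-181d, over groups that share libraries, table and depth within a tissue.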

How the data were processed

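Small RNA of lung, heart, brain, WBC and RBC was sequenced by the authors with a QIAseq library kit, trimmed and aligned to mouse miRNAs (mm10). They deposited raw read counts of 1915 mature miRNAs in 5 tables, with no normalisation. Use of molecular identifiers and the assignment of reads that fit several names are not given in the sources used here, so no error given here reaches beyond counting and the spread between libraries. Columns that matched no sample numbered 0. Library totals ran from 1794995 to 7865102 reads.

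The members and marker lists were chosen with earlier results of these data known. Groups came from the labels. Pairs of libraries within a group all differed beyond sampling noise (smallest chi-square per degree of freedom 15.5). Whether replicates were housed or handled apart beyond being separate mice was not stated.

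Low counts were removed by filterByExpr (edgeR 4.0.16, minimum count 10, minimum total 15), and the rest was fitted in R 4.3.3 with limma 3.58.1 after voom, with quantile normalisation within a tissue and library size alone between tissues. Tests were two-sided with Benjamini-Hochberg adjustment over all miRNAs, called at 0.05. The study's fold minimum of 2.25 was counted as an alternative. Ratios used a pseudocount of 0.5, with exact permutation tests between groups and paired sign-flip permutations (100000 resamples) between tissues in scipy 1.17.1. DESeq2 1.42.0, edgeR, TMM, other filters, sex and letter, 1 strain at a time and left-out libraries were alternatives, as was the animal as a block, since the labels give all tissues of a mouse 1 number (median correlation of an animal's deviations between tissues -0.10 to 0.18, block correlation 0.017). Scripts were tested on simulated data. Named miRNAs were the members, their 3p arms, the marker and blood-cell miRNAs, and for each member the 3 most alike over sham groups among the 174 miRNAs that passed the filter in all tissues. Sequences were those of RefSeq (GRCm38.p6), where 4 members and 6 3p arms matched by name.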

Additional observations from a re-analysis of the deposited data

Results flagged for a closer look

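In 3 of 90 checks a single library stood apart from the rest of its group by Dixon's ratio of gap to range, where chance gives about 1 in 20. The checks covered 4 members and 2 ratios in each group of 5 to 8 libraries, so they were not independent. In irradiated C3H brain, replicate 5 held 5991.08 RPM of miR-181a, below the other 6 at 9649 to 13406 RPM. In irradiated C57 brain, replicate 5 had a log2 ratio of miR-181c plus miR-181d to miR-181a plus miR-181b of -4.60, below the other 4 at -3.78 to -3.47. It was the only female of that group, and sham C57 brains ranged from -4.48 to -3.73 in 7 females and -3.94 to -3.45 in 8 males. In irradiated C3H RBC, replicate 4 held 12.7 RPM of miR-181b, above the other 6 at 7.13 to 9.16 RPM. No member moved in opposite directions in every library of the 2 strains.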

How the results depend on the processing

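Of the values under other settings, 1099 of 1241 were labelled as unchanged, and of those with 1 library left out 976 of 1007. These totals pool differences with counts of passing members and, for other settings, mean levels. They are therefore not the share of differences that kept their direction and call. For C57 lung, 2 members passed with edgeR, DESeq2 and TMM, 1 with library size alone, 1 within letter B and 1 with the animal as a replicate block. Of all miRNAs, 24.1% passed there with DESeq2, 20.9% with TMM, 20.6% each with edgeR and library size alone, 18.4% within letter B and 5.9% with the block. Leaving out 1 library gave 0 to 2, with values of -0.74 to -0.52 for miR-181a and -0.73 to -0.54 for miR-181b, and 2 passed only without C57 sham replicate 4. In C3H lung 1 passed within letter B (24.1% of all miRNAs). In C3H RBC 1 passed with edgeR (5.24%) and 1 with DESeq2 (9.61%). The block changed no other member call after WTLI or between tissues. The cause of these changes was not tested.

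Directions turned in C3H lung within letter A for miR-181a (0.25) and miR-181b (0.16), and within letter B for miR-181d (-0.073). In heart they turned for miR-181b in C3H with library size alone (-0.051) and within letter A (-0.020), for miR-181a (0.10) and miR-181b (0.12) in C57 males alone, and for miR-181c in C57 within letter A (-0.19). With 1 library left out, ranges that crossed 0 were -0.12 to 0.13 for miR-181d in C3H lung, -0.012 to 0.39 for miR-181b and -0.21 to 0.030 for miR-181c in C3H heart, and -0.036 to 0.12 for miR-181c in C57 heart.

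Between tissues the scaling turned 11 of 40 differences with quantile normalisation and 2 of 40 each with edgeR, DESeq2 and TMM. With edgeR these were miR-181d between brain and WBC (-0.37) and miR-181c between heart and WBC (-0.18). With DESeq2 they were miR-181d between lung and heart (-0.12) and miR-181b between heart and WBC (0.28), and 2 members passed between WBC and RBC (38% of all miRNAs). With TMM they were miR-181d between brain and WBC (-0.41) and miR-181c between heart and WBC (-0.19). With quantile normalisation they were miR-181b (-0.46) and miR-181d (-0.089) between brain and lung, miR-181d between brain and WBC (-2.56), miR-181c (-0.24) and miR-181d (-2.50) between brain and RBC, miR-181c between lung and WBC (-0.17), lung and RBC (-0.44), heart and WBC (-0.60), heart and RBC (-0.87) and WBC and RBC (-0.27), and miR-181b between heart and RBC (-0.54), and members passing numbered 2 for brain and lung (90.1% of all miRNAs), 2 for brain and WBC (91.8%), 4 for heart and WBC (87.6%) and 1 for WBC and RBC (56.5%). In C3H alone miR-181d turned between lung and WBC (0.11) and lung and RBC (0.48), miR-181b between heart and WBC (1.09) and miR-181c between WBC and RBC (-0.0056), with 4 passing between heart and WBC (85.9%) and 0 between WBC and RBC (20.3%). In C57 alone miR-181c turned between heart and WBC (-0.995), with 4 passing (86.2%). Without 1 WBC library of C3H, heart against WBC ran from -0.25 to 0.096 for miR-181b and -0.053 to 0.077 for miR-181c. TMM-scaled means were 5161, 180, 322 and 77.5 RPM in brain and 180.6, 17.1, 77.3 and 65.5 RPM in RBC for miR-181a to miR-181d.

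Between sham sexes, miR-181b turned in lung with edgeR (0.0013) and in brain with edgeR (-0.080) and DESeq2 (-0.093), and miR-181c in WBC with library size alone (0.43). In heart 2 members passed with edgeR (49.8% of all miRNAs) and 2 with library size alone (45.1%). In WBC 3 passed with DESeq2 (22%), 3 with library size alone (20.5%), 0 with the looser filter (2.91%) and 0 with the letter as a covariate (10.8%), and 0 to 1 with 1 library left out, where miR-181d ran from 0.77 to 0.85. Between strains, miR-181d turned in heart (0.17) and WBC (-0.41) with library size alone and in RBC with DESeq2 (-0.0084), and miR-181a in WBC with TMM (0.0029), where leaving out 1 library gave -0.42 to 0.14. In heart 1 passed with TMM (41%), 1 with library size alone (42.7%), 1 with the stricter filter (45.8%), 0 with the looser filter (11.3%) and 0 without C3H replicate 3 (31.7%, chosen after seeing the data), and in WBC 2 passed with library size alone (37.8%).

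Counts over all miRNAs moved more than 1.5 times in several contrasts, as in C57 lung, from 58 to 7 within letter A, in C3H heart from 52 to 18 within letter B, in C57 heart from 11 to 28 and in the C3H lung to heart comparison from 25 to 65, both of these with the looser filter. Member differences in brain, WBC and RBC after WTLI ran from -1.06 to 1.28 over all settings, with 2 of 688 values passing, both miR-181d in C3H RBC, interactions from -0.52 to 0.96 with 0 of 848 passing, and the lung to heart comparison from -1.06 to 0.29 with 0 of 48 passing. Ratio differences after WTLI ran from -0.67 to 1.00 with a smallest adjusted p of 0.0602. In RBC miR-181b rested on 11 to 94 reads a library, which limits its precision.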
